A study of Mus musculus with 8 samples.

Results

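Transforming growth factor beta (TGF beta) and platelet-derived growth factor (PDGF) signalling was followed through 10 genes in the livers of 8 male mice. The genes were taken by symbol: the TGF beta ligands Tgfb1, Tgfb2 and Tgfb3, the PDGF ligands Pdgfa and Pdgfb, the TGF beta receptors Tgfbr1, Tgfbr2 and Tgfbr3, and the PDGF receptors Pdgfra and Pdgfrb. All 10 were among the 32285 genes in the files. The mice were DIAMOND mice, given in the labels as 129A1/SvIm and C57BL/6J cross mice, and every one of them had been fed a Western diet, high in fat with sugar in the water. In the WD tumour group (n = 3 mice) the Western diet lasted 48 weeks and hepatocellular carcinoma developed. In the RD tumour group (n = 2 mice) the diet was reversed to standard chow after 36 weeks and carcinoma was present at the end. In the RD no tumour group (n = 3 mice) the same reversal was made and no carcinoma was detected. No mouse kept on chow throughout was among the samples, and the labels do not say whether the frozen piece of liver held tumour tissue. One statement puts the end of the study at 48 weeks of age and another starts the diets at 2 months of age, which cannot both hold with 48 weeks of feeding. Single-nucleus RNA sequencing counted unique molecular identifiers (UMIs, 1 per captured RNA molecule) per gene and nucleus, and the mouse was the replicate. A level is given as CPM, the UMIs of a gene per 1000000 UMIs of the library or class. The groups were set side by side in 3 ways: the tumour comparison (RD tumour minus RD no tumour, both after diet reversal), the diet comparison (WD tumour minus RD tumour, both with carcinoma), and the combined comparison (WD tumour minus RD no tumour), in which diet and carcinoma both differ and cannot be told apart.

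TGF beta ligands are secreted in a latent complex, and after activation they bind a type II receptor kinase, Tgfbr2, which recruits and phosphorylates the type I receptor kinase Tgfbr1. SMAD proteins then carry the signal to the nucleus, while Tgfbr3 (betaglycan) is a co-receptor that presents ligand. PDGF ligands are dimers that pair and activate the receptor tyrosine kinases Pdgfra and Pdgfrb. In liver, both pathways are known for acting on hepatic stellate cells, the pericyte-like cells that turn into collagen-producing myofibroblasts in fibrosis.

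The libraries held 17948627 (WD tumour 1) to 34363108 (RD tumour 1) UMIs in total, over 80575 barcodes, of which 79446 had at least 300 genes and were used. All 15 hepatocyte markers were present in every library, with summed levels of 32127 to 46573 CPM (the liver label held). RD tumour 1 stood apart from the other 7 libraries: it held exactly 20000 barcodes, its 18 macrophage markers summed to 3644 CPM against 542 to 1867 elsewhere, and its 10 neutrophil markers to 2992 against 32.8 to 908. By its whole-library profile RD tumour 1 formed a cluster by itself, WD tumour 2 and RD no tumour 1 formed another, and the remaining 5 libraries grouped together. Between 8 and 65 barcodes were shared by a pair of libraries, at most 0.676% of the smaller library. Nuclei were assigned to 7 cell classes by a marker gate that used none of the 10 genes: at least 3 distinct markers of 1 class, at least 4 times more marker UMIs than the library's average nucleus would give, and no other class passing. Hepatocyte RNA was present in every class (the 15 hepatocyte markers summed to 29714 to 50558 CPM in stellate/fibroblast-gated nuclei), so at low levels a nucleus's own RNA and RNA from other nuclei cannot be told apart.

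**Figure D1:**
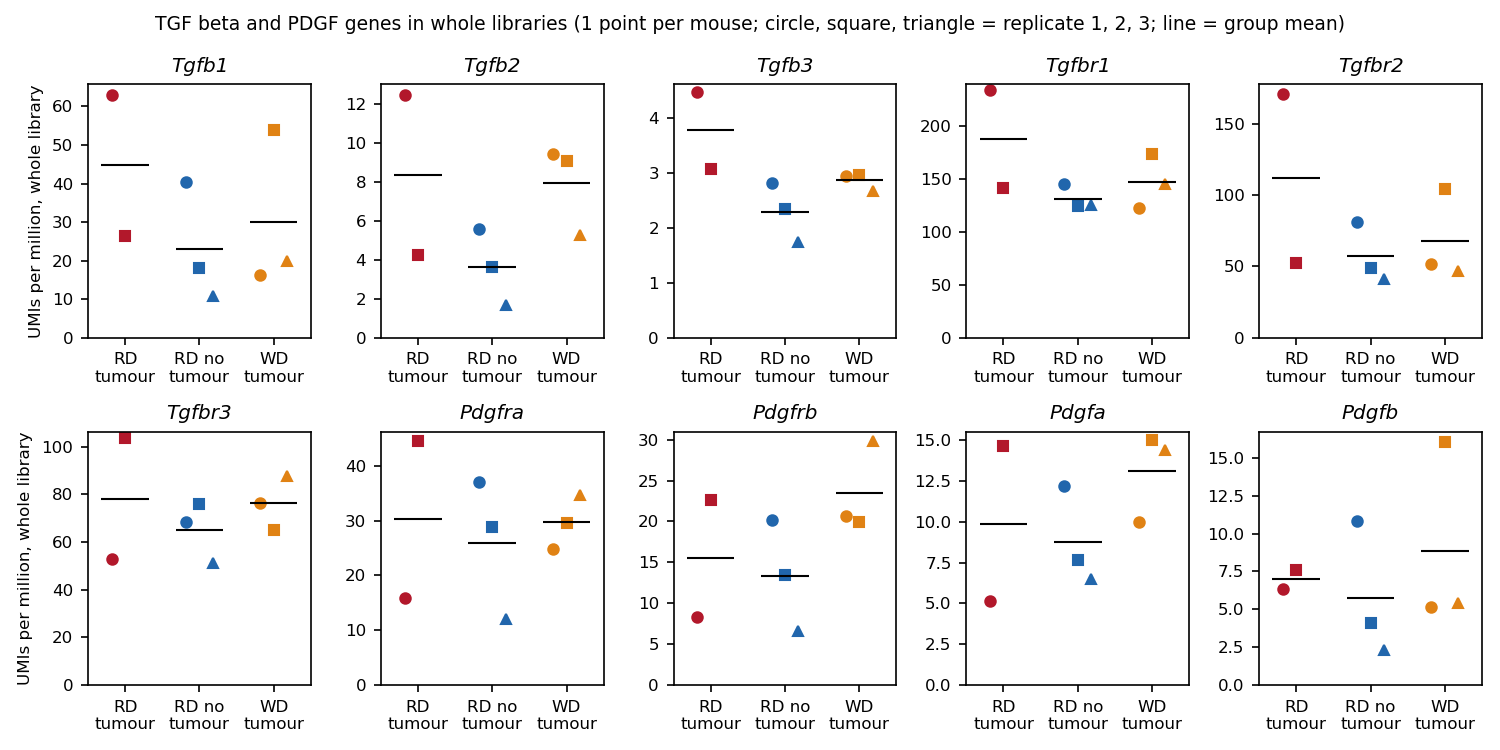
Level of each of the 10 genes in the whole library (y axis, CPM, linear and starting at 0) by group (x axis), with 1 point per mouse and a line at the group mean. RD tumour 1 (circle) is the highest library for Tgfb1, Tgfb2, Tgfb3, Tgfbr1 and Tgfbr2, and the groups overlap for each gene but Tgfb3, where both RD tumour mice lie above the other 6.

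In whole libraries, none of the 10 genes differed between groups by edgeR's quasi-likelihood test at an adjusted p of 0.05. The same test called 0 of 19087 genes in each of the 3 comparisons (percent called 0), so the count of members matches the background. At an unadjusted p under 0.05 it picked 1279, 524 and 1443 genes (6.7%, 2.75% and 7.56%) in the tumour, combined and diet comparisons, with 0 members in each. DESeq2 called 64, 36 and 109 genes (0.338%, 0.194% and 0.588%) and 0 members. The fitted log2 differences of the members had medians of 0.36, 0.32 and -0.04 in these comparisons, beside 0.00, -0.01 and -0.01 over all genes, and 10, 10 and 5 of the 10 were above 0. In these whole-library sums, fewer cells of a type and less RNA per cell cannot be told apart.

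Among the ligands, Tgfb1, the most widely studied TGF beta, was at 63.1 and 26.4 CPM in the 2 RD tumour mice. In RD no tumour it was at 40.4, 18.1 and 10.9, and in WD tumour at 16.2, 53.9 and 20.005. The 3 high libraries were RD tumour 1, RD no tumour 1 and WD tumour 2, which belong to 3 different groups, and their macrophage markers summed to 3644, 1867 and 1777 CPM against 542 to 1018 in the other 5; the part of macrophage RNA in these levels was not tested. Tgfb2, a ligand known from epithelia and mesenchyme, was at 12.5 and 4.26 CPM in RD tumour, 5.56, 3.62 and 1.68 in RD no tumour, and 9.42, 9.06 and 5.29 in WD tumour. Its log2 difference was 1.20 ± 0.61 (SE) in the tumour comparison and 1.12 ± 0.56 in the combined comparison, with edgeR adjusted p = 0.612 and 1.0. RD tumour 2 and WD tumour 3 lay below RD no tumour 1, and without RD tumour 1 the difference in the tumour comparison was 0.15. Cholangiocyte-gated nuclei, among the highest in Tgfb2, were 2.69%, 1.60% and 2.22% of barcodes in WD tumour. They were 0.47% and 1.86% in RD tumour and 0.691%, 0.992% and 0.773% in RD no tumour; the part of this share in the Tgfb2 levels was not tested. Tgfb3 was low throughout, at 4.48 and 3.09 CPM in RD tumour, 2.81, 2.34 and 1.74 in RD no tumour, and 2.95, 2.98 and 2.68 in WD tumour. Both RD tumour mice lay above the other 6, with a log2 difference of 0.68 ± 0.39 (SE) in the tumour comparison that did not pass (edgeR adjusted p = 0.612).

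Pdgfa, whose homodimer binds Pdgfra, was at 5.15 and 14.6 CPM in RD tumour, 12.2, 7.68 and 6.49 in RD no tumour, and 9.97, 15.0 and 14.4 in WD tumour. Pdgfb, which binds both PDGF receptors, was at 6.37 and 7.57 in RD tumour, 10.8, 4.10 and 2.33 in RD no tumour, and 5.13, 16.04 and 5.45 in WD tumour. For both ligands the 3 groups overlapped. In the combined comparison the log2 differences were 0.55 ± 0.41 (SE) for Pdgfa and 0.60 ± 0.62 for Pdgfb.

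The type I receptor Tgfbr1 was at 234 and 142 CPM in RD tumour, 145, 124 and 125 in RD no tumour, and 123, 174 and 145 in WD tumour. The type II receptor Tgfbr2 was at 171 and 52.3, then 81.0, 49.2 and 41.5, then 51.8, 104 and 46.9 in the same order. Both were highest in RD tumour 1, and without it their log2 differences in the tumour comparison moved from 0.47 to -0.01 for Tgfbr1 and from 0.95 to -0.23 for Tgfbr2. Tgfbr3 ran from 51.1 CPM in RD no tumour 3 to 104 in RD tumour 2, with 3 log2 differences of 0.19, 0.19 and 0.00.

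Pdgfra was at 15.9 and 44.6 CPM in RD tumour, 37.1, 28.8 and 12.1 in RD no tumour, and 24.9, 29.5 and 34.7 in WD tumour. Pdgfrb was at 8.32 and 22.6, then 20.1, 13.5 and 6.55, then 20.7, 19.9 and 29.8. The 16 stellate/fibroblast markers summed to 535 and 1521 CPM in RD tumour, 1319, 1104 and 602 in RD no tumour and 1073, 993 and 1158 in WD tumour, so the libraries low in both receptors, RD tumour 1 and RD no tumour 3, were also the 2 lowest in stellate markers; the part of stellate nuclei in these levels was not tested. The difference in the combined comparison was 0.17 ± 0.46 (log2, SE) for Pdgfra and 0.80 ± 0.47 for Pdgfrb, and neither passed.

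The cell class of each ligand and receptor was examined next. The levels came from 40460 hepatocyte-gated, 4712 stellate/fibroblast-gated, 5361 endothelial-gated, 3869 macrophage-gated, 1344 T/NK-gated, 604 B-gated and 982 cholangiocyte-gated nuclei (cholangiocytes line the bile ducts). Macrophage and B levels lack RD tumour 1, which had 9 and 11 such nuclei, fewer than the minimum of 20. In that library the gate separated classes weakly: the median stellate/fibroblast-gated nucleus carried 3 stellate and 3 macrophage markers. Each class was compared with the mean of the other 6 in an edgeR fit over 54 mouse-by-class profiles with the mouse as a block, a test added after the levels were seen; 9 of the 10 genes passed its filter on low counts and Tgfb3 did not. This fit called 18.9% of 12735 genes higher and 21.5% lower in stellate/fibroblast-gated nuclei. Of the 9 members, 5 were higher and 1 lower there. The background was 21.6% higher and 24.7% lower for endothelial-gated nuclei (4 and 4 members), 26.4% and 27.9% for macrophage-gated nuclei (5 and 3 members), and 12.5% and 13.8% for cholangiocyte-gated nuclei (3 and 4 members). It was 36.3% and 28.1% for hepatocyte-gated nuclei (1 and 7 members), 6.56% and 5.61% for B-gated nuclei (2 and 1 members), and 8.46% and 6.6% for T/NK-gated nuclei (0 and 0 members). Without RD tumour 1 all 10 members were tested, and the counts were 6 higher and 1 lower in stellate/fibroblast-gated (background 20.2% and 23.4%), 4 and 4 in endothelial-gated (23.9% and 24.8%), 6 and 3 in macrophage-gated (24.5% and 31.8%), 2 and 0 in T/NK-gated (9.86% and 7.73%), 2 and 1 in B-gated (7.07% and 7.06%), 4 and 4 in cholangiocyte-gated (14.1% and 11.7%), and 1 and 9 in hepatocyte-gated nuclei (36.5% and 30.7%).

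**Figure D2:**
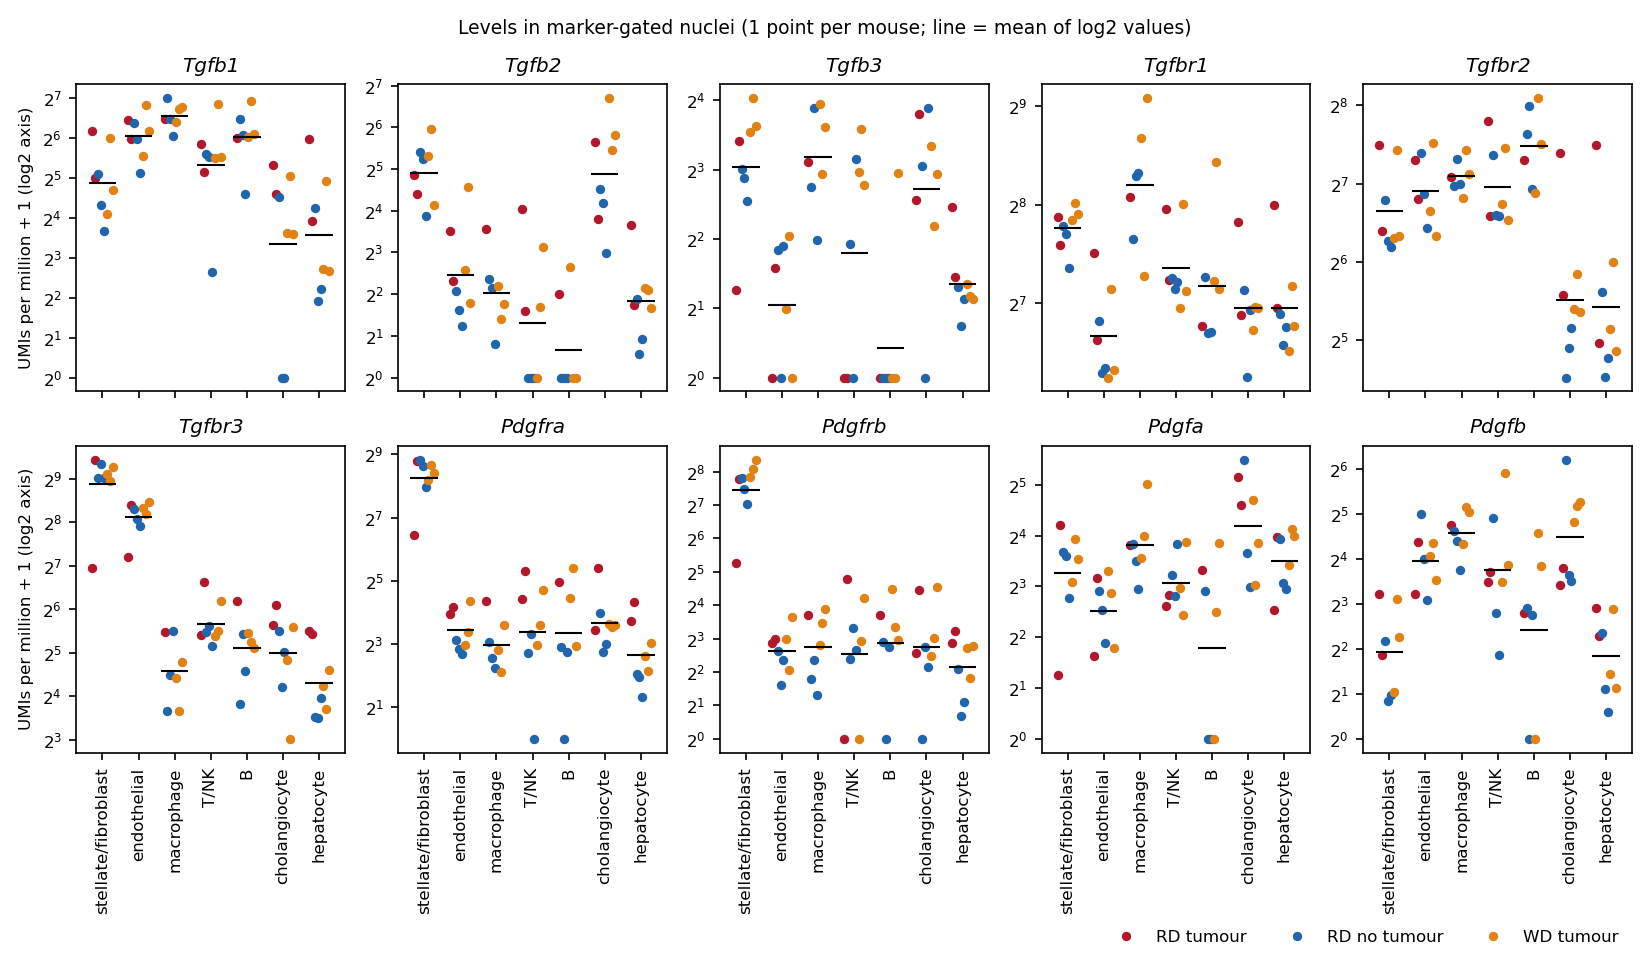
Level of each gene in the 7 gated classes (y axis, CPM + 1 on a log2 axis; x axis, class), with 1 point per mouse coloured by group and a line at the mean of the log2 values. Pdgfra and Pdgfrb stand far above all other classes in stellate/fibroblast-gated nuclei, Tgfbr3 is high in stellate/fibroblast- and endothelial-gated nuclei, Tgfb2 in stellate/fibroblast- and cholangiocyte-gated nuclei, and Tgfb1 in macrophage-, endothelial- and B-gated nuclei.

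Tgfb1 was led by macrophage-gated nuclei, at 87.9 CPM in RD tumour 2, 126, 87.1 and 64.7 in RD no tumour, and 82.9, 105 and 108 in WD tumour (94.4 ± 19.9, SD, n = 7). Endothelial-gated nuclei were next (69.4 ± 24.7, SD, n = 8), level with B-gated nuclei (70.1 ± 29.1, SD, n = 7). Macrophage-gated nuclei were above endothelial-gated nuclei in 6 of 7 mice (exact sign-flip permutation p = 0.03125, adjusted p = 0.134). Over all 10 members, that test separated 0 of 60 neighbouring pairs of classes at an adjusted p of 0.05 (lowest adjusted p = 0.0781). Orders of neighbouring classes are thus descriptive, while the edgeR fit compares a class with the mean of the others. Hepatocyte-gated nuclei ranged from 2.79 to 61.8 with a median of 9.90, and their highest library was RD tumour 1. Against the mean of the other classes, Tgfb1 was higher by 1.80 ± 0.19 (log2, SE) in macrophage-gated, 1.00 ± 0.19 in endothelial-gated and 0.92 ± 0.27 in B-gated nuclei, with edgeR adjusted p = 1.79e-11, 1.54e-05 and 0.0171.

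Tgfb2 was highest in stellate/fibroblast- and cholangiocyte-gated nuclei. Stellate/fibroblast-gated nuclei had 27.9 and 20.2 CPM in RD tumour, 41.7, 36.7 and 13.6 in RD no tumour, and 38.4, 61.3 and 16.7 in WD tumour. Cholangiocyte-gated nuclei had 49.0 and 12.96, then 22.0, 17.4 and 6.92, then 103, 42.6 and 55.7. The order of these leading classes was not resolved (exact sign-flip permutation test over 8 mice, two-sided p = 0.984, adjusted p = 0.984), while endothelial-gated nuclei were lower than cholangiocyte-gated nuclei in 8 of 8 mice (exact p = 0.0078, the smallest that 8 mice allow; adjusted p = 0.0781 over 60 neighbouring pairs). In the fit, Tgfb2 was higher by 2.92 ± 0.30 (log2, SE) in stellate/fibroblast-gated and by 2.96 ± 0.38 in cholangiocyte-gated nuclei, with edgeR adjusted p = 1.87e-11 and 1.38e-08.

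The promoters of Tgfb1 and Tgfb2 are shown because these ligands of 1 family had their highest levels in different classes. Each line gives the 250 bases before the RefSeq start of the gene (GRCm38.p6), 5′ to 3′ on the gene's strand, at chr7:25686752-25687001 (plus strand) for Tgfb1 and chr1:186705990-186706239 (minus strand) for Tgfb2. Capitals mark matches, on either strand, to the GC box letters GGGCGG, the TATA box letters TATAAA, the E box letters CACGTG or the cyclic AMP response element core TGACG; no matches overlap. The full element TGACGTCA, which contains the core, was also searched and is in neither window.
Tgfb1: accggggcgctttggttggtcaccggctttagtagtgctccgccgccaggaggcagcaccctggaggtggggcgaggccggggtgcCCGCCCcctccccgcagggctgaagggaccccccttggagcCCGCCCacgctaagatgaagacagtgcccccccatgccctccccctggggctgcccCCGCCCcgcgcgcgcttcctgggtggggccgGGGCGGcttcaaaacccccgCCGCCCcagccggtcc
Tgfb2: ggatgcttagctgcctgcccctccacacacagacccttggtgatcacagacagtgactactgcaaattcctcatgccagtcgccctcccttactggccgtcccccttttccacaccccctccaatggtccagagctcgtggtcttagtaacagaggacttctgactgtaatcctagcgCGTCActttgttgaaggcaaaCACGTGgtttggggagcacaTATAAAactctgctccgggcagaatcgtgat
The Tgfb1 window held 5 GGGCGG matches and no match to the other motifs, with a GC content of 75.2%, above 96.1% of all 32851 promoters. In the Tgfb2 window, TATAAA began 31 bases before the start, CACGTG 51 bases and TGACG (other strand) 72 bases before it, at a GC content of 53.6% against a median of 52.4% for all promoters. Of all promoters in windows of this length, 32.7% held GGGCGG, 12.4% TATAAA, 6.02% CACGTG, 17.8% TGACG and 1.55% the full element. Entries were found for 6 of the 10 genes; a match describes the letters only.

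Tgfb3 was sparse, with 1 to 227 UMIs per class over all mice. Its highest mean levels were 8.92 ± 4.32 CPM (SD, n = 7) in macrophage-gated, 8.34 ± 4.32 (SD, n = 8) in stellate/fibroblast-gated and 7.30 ± 4.65 (SD, n = 8) in cholangiocyte-gated nuclei, and the order of these neighbours was not resolved (exact sign-flip permutation p = 0.656 and 0.547, adjusted p = 0.838 for both). Without RD tumour 1 it passed the filter of the class fit and was higher in macrophage-gated nuclei by 1.66 ± 0.34 and in stellate/fibroblast-gated nuclei by 1.78 ± 0.33 (log2, SE; edgeR adjusted p = 6.03e-05 and 1.86e-05). It was also higher in cholangiocyte-gated nuclei by 1.38 ± 0.50 and lower in hepatocyte-gated nuclei, at -1.38 ± 0.50 (edgeR adjusted p = 0.0351 and 0.0148).

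Pdgfa was the only member called higher in hepatocyte-gated nuclei, by 0.49 ± 0.19 (log2, SE; edgeR adjusted p = 0.0231). Its hepatocyte-gated level was 4.78 and 14.7 CPM in RD tumour, 14.2, 7.41 and 6.67 in RD no tumour, and 9.65, 16.5 and 14.9 in WD tumour. Cholangiocyte-gated (20.7 ± 13.4, SD, n = 8) and macrophage-gated nuclei (14.3 ± 7.94, SD, n = 7) were higher still on average, by 1.15 ± 0.30 and 0.66 ± 0.24 against the mean of the other classes. The cholangiocyte-gated level rested on 2 to 11 Pdgfa UMIs per mouse. It was below the hepatocyte-gated level in WD tumour 2 and WD tumour 3 (7.09 and 13.4 CPM) and above it in the other mice. No neighbouring pair in the order of Pdgfa levels was resolved (lowest exact permutation p = 0.211, adjusted p = 0.505).

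Pdgfb in macrophage-gated nuclei was at 26.1 CPM in RD tumour 2, 23.9, 20.05 and 12.6 in RD no tumour, and 19.2, 34.9 and 32.1 in WD tumour. Cholangiocyte-gated nuclei had 27.3 ± 21.8 (SD, n = 8), and the order of these classes was not resolved (macrophage higher in 3 of 7 mice; exact sign-flip permutation p = 0.922, adjusted p = 0.984). Endothelial-gated nuclei had 15.98 ± 7.72 and stellate/fibroblast-gated nuclei 3.60 ± 2.96 (SD, n = 8). The differences from the other classes were 1.61 ± 0.24 in macrophage-gated, 1.46 ± 0.31 in cholangiocyte-gated, 0.86 ± 0.24 in endothelial-gated and -1.87 ± 0.34 in stellate/fibroblast-gated nuclei (log2, SE; edgeR adjusted p = 1.94e-07, 0.000204, 0.00297 and 1.02e-05). Pdgfb was thus lower than the mean of the other classes in the nuclei where both PDGF receptors were highest. Hepatocyte-gated nuclei were also low, at 3.20 ± 2.40 CPM (SD, n = 8). Their order with stellate/fibroblast-gated nuclei was not resolved (exact sign-flip permutation p = 0.672, adjusted p = 0.84). The low Pdgfb level was therefore not particular to stellate/fibroblast-gated nuclei.

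Tgfbr1 and Tgfbr2 were spread over all classes. Tgfbr1 in macrophage-gated nuclei was at 269 CPM in RD tumour 2, 201, 312 and 319 in RD no tumour, and 409, 154 and 540.2 in WD tumour. It was higher there by 1.27 ± 0.13 and in stellate/fibroblast-gated nuclei by 0.59 ± 0.13 (log2, SE; edgeR adjusted p = 8.35e-12 and 0.000173), and lowest in endothelial-gated nuclei (106 ± 38.1 CPM, SD, n = 8). Tgfbr2 led in B-gated nuclei (185 ± 60.5, SD, n = 7), then macrophage-gated (138 ± 20.4, SD, n = 7), T/NK-gated (130.4 ± 49.5, SD, n = 8) and endothelial-gated nuclei (125 ± 38.9, SD, n = 8). B-gated nuclei were above macrophage-gated nuclei in 6 of 7 mice, which did not pass correction (exact sign-flip permutation p = 0.0469, adjusted p = 0.165). In hepatocyte-gated nuclei Tgfbr2 was at 179 in RD tumour 1 and between 22.0 and 63.2 in the other 7 mice.

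Tgfbr3 was at 123 and 691 CPM in the stellate/fibroblast-gated nuclei of RD tumour, 512, 649.7 and 513 in RD no tumour, and 554, 496 and 619 in WD tumour. Endothelial-gated nuclei had 146 and 337, then 313, 267 and 238, then 319.6, 291 and 353. The other 5 classes had means of 21.8 to 52.7. RD tumour 1 was the lowest library in both leading classes. The log2 difference from the other classes was 3.61 ± 0.16 (SE) in stellate/fibroblast-gated and 2.56 ± 0.17 in endothelial-gated nuclei, with edgeR adjusted p = 2.28e-24 and 9.78e-18. Stellate/fibroblast-gated nuclei were above endothelial-gated nuclei in 7 of 8 mice (exact sign-flip permutation p = 0.0156, adjusted p = 0.104).

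Both PDGF receptors peaked in stellate/fibroblast-gated nuclei. Pdgfra was there at 86.5 and 444 CPM in RD tumour, 455, 393 and 247 in RD no tumour, and 293, 401 and 342 in WD tumour, and no other class had a mean above 15.9. Pdgfrb was at 37.7 and 218, then 225, 177 and 130.3, then 227, 269.9 and 326, against means of 4.22 to 8.76 in the other classes. RD tumour 1 was the lowest in both. Among the remaining 7 mice the groups overlapped for Pdgfra, while for Pdgfrb the 3 WD tumour mice lay above the other 4, the lowest of them by a small margin (227 against 225). The log2 differences from the other classes were 5.22 ± 0.19 (SE) for Pdgfra and 5.06 ± 0.20 for Pdgfrb, with edgeR adjusted p = 2.04e-28 and 4.46e-27. Against the next class, Pdgfra was higher in 8 of 8 mice (cholangiocyte-gated) and Pdgfrb in 7 of 7 mice (B-gated). The exact sign-flip permutation test gave p = 0.0078 and 0.0156, the smallest that these mice allow (adjusted p = 0.0781 and 0.104). After thinning to 500 UMIs per nucleus, the share of stellate/fibroblast-gated nuclei with a Pdgfra UMI was 4.01% in RD tumour 1 and 13% to 21.2% in the other 7 mice, against 0.0995 to 0.964% in hepatocyte-gated nuclei of the same libraries. Without thinning it was 11.2% and 34.8 to 60.9% in stellate/fibroblast-gated nuclei (median depth 1107 to 2714.5 UMIs) and 0.475 to 3.9% in hepatocyte-gated nuclei (median depth 1343 to 4737 UMIs).

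**Figure D3:**
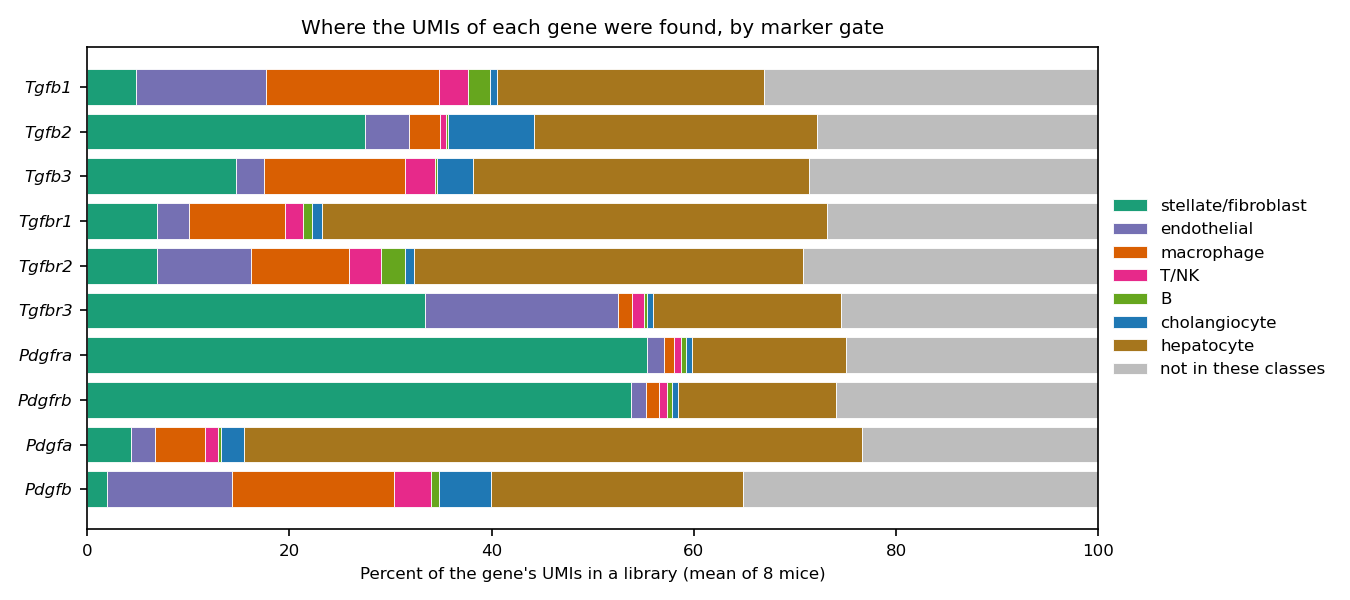
Mean share over 8 mice of each gene's UMIs found in each gated class (x axis, percent from 0 to 100; 1 bar per gene). The longest piece of the bar is stellate/fibroblast for Pdgfra (55.4%) and Pdgfrb (53.8%), and hepatocyte for Pdgfa (61.1%). A share depends on the number and depth of a class's nuclei as well as on the level of the gene in them.

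Levels in CPM do not show how much of a gene's RNA each class held, since hepatocyte-gated nuclei were 50.1% of all barcodes on average and stellate/fibroblast-gated nuclei 6.52%. Stellate/fibroblast-gated nuclei held 55.4 ± 20.7% of the Pdgfra UMIs, 53.8 ± 20.2% of the Pdgfrb UMIs and 33.4 ± 13.1% of the Tgfbr3 UMIs of a library (SD, n = 8). Hepatocyte-gated nuclei held 61.1 ± 4.55% of the Pdgfa UMIs and 49.9 ± 6.87% of the Tgfbr1 UMIs (SD, n = 8). A share of barcodes is not a share of all UMIs, which also depends on depth per nucleus. The Pdgfa level was 4.78 to 16.5 CPM in hepatocyte-gated nuclei and 5.15 to 15.0 CPM in whole libraries. These levels were close in each mouse, so the 61.1% was near the class's share of all UMIs. Tgfb2 was split, with 28.0 ± 13.5% in hepatocyte-gated, 27.5 ± 16.2% in stellate/fibroblast-gated and 8.5 ± 9.2% in cholangiocyte-gated nuclei (SD, n = 8). RD tumour 1, where the gate separated classes weakly, had 54.7% in hepatocyte-gated and 4.67% in stellate/fibroblast-gated nuclei. In the other mice these shares were 8.54 to 35.2% and 16.9 to 56.1%. For Tgfb1 the largest gated shares were 26.4 ± 14.1% in hepatocyte-gated, 17.0 ± 11.2% in macrophage-gated and 12.9 ± 6.16% in endothelial-gated nuclei (SD, n = 8). RD tumour 1, with 9 macrophage-gated nuclei, entered these means at 57.3% for hepatocyte-gated and 0% for macrophage-gated nuclei. In the other mice these shares were 10.0 to 31.1% and 5.19 to 30.8%, and their order differed between mice. Between 23.4% and 35.2% of the UMIs of each gene lay in barcodes outside these classes.

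Within the classes, the groups were compared as for whole libraries. Over whole libraries and 7 classes, 20 tests of a class and a contrast gave 155 values for members; 0 were called by edgeR, 12 had an unadjusted p under 0.05, and the lowest adjusted p was 0.286. The background was 0 genes called in each of the 20. At an unadjusted p under 0.05 the test picked 5.29%, 2.13% and 5.53% of 11927 genes in endothelial-gated nuclei (tumour, combined and diet comparisons; 0, 1 and 0 of 7 members), 5.62%, 1.86% and 4.13% of 8820 in T/NK-gated nuclei (1, 0 and 0 of 6 members), 8.81%, 4.57% and 10.1% of 7228 in cholangiocyte-gated nuclei (1, 1 and 0 of 5 members), and, in the combined comparison, 3.93% of 12663 in macrophage-gated nuclei (1 of 10 members) and 2.44% of 6602 in B-gated nuclei (0 of 4 members). DESeq2 called 0 members in these 5 classes, where it called 0.0252%, 0.0504% and 0.0504% of endothelial genes, 0.0114%, 0% and 0.0114% of T/NK genes, 0.523%, 0.0415% and 1.14% of cholangiocyte genes, 0.0158% of macrophage genes and 0.0152% of B genes. The cholangiocyte percentages are of 1339, 7223 and 4280 genes in the tumour, combined and diet comparisons, so DESeq2 covered far fewer genes in the tumour comparison than edgeR. In RD tumour 1 the median T/NK-gated nucleus carried 5 macrophage and 3 own markers, and the median cholangiocyte-gated nucleus 4 and 3. Counts of the tumour and diet comparisons in these classes carry that limit. In stellate/fibroblast-gated nuclei, 9 of 11811 tested genes were members, the unadjusted p was under 0.05 for 0 members and for 6.09%, 2.63% and 7.23% of genes in the 3 comparisons, and DESeq2 called 0, 9 and 14 genes (0%, 0.0763% and 0.129%) and 0 members. In the combined comparison the members' log2 differences in these nuclei ran from -0.15 for Pdgfra to 0.94 for Tgfb3, with a median of 0.24 beside -0.01 for all genes. In the tumour comparison, Tgfbr3, Pdgfra and Pdgfrb were at -0.53, -0.54 and -0.54, and without RD tumour 1 Tgfbr3 was at 0.22 and Pdgfra at 0.19.

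**Figure D4:**
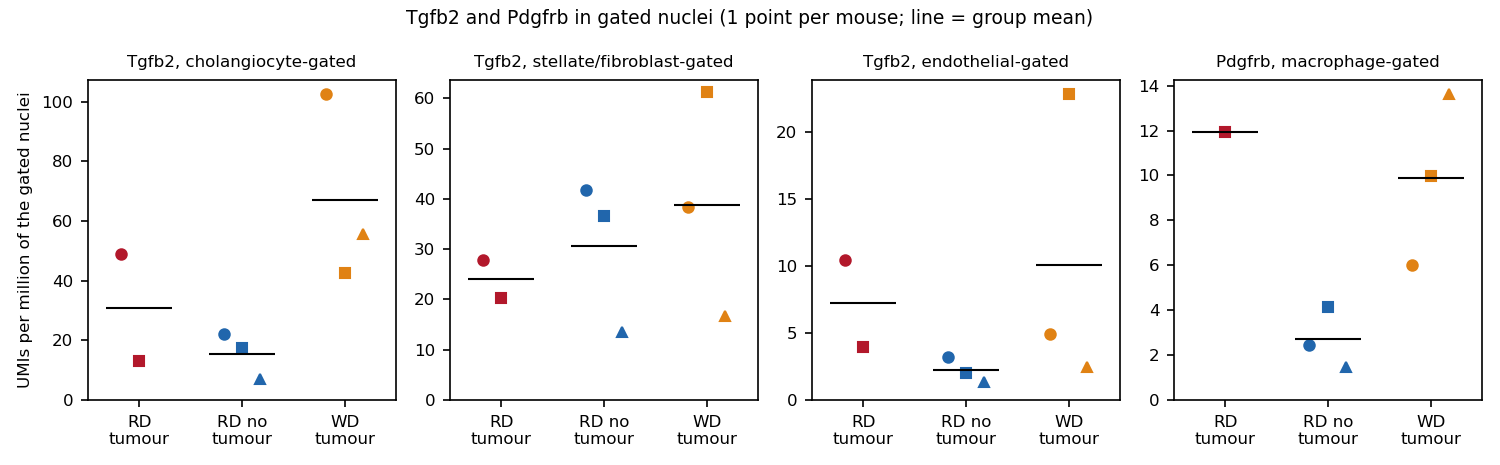
Tgfb2 in cholangiocyte-, stellate/fibroblast- and endothelial-gated nuclei and Pdgfrb in macrophage-gated nuclei (y axis, CPM, linear and starting at 0; x axis, group), with 1 point per mouse and a line at the group mean. The 3 WD tumour mice lie above the 3 RD no tumour mice for Tgfb2 in cholangiocyte-gated nuclei (42.6 to 103 against 6.92 to 22.0) and for Pdgfrb in macrophage-gated nuclei, and overlap with them for Tgfb2 in the other classes.

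Tgfb2 in cholangiocyte-gated nuclei gave the lowest unadjusted p of a member in the combined comparison. The 3 WD tumour mice had 45, 12 and 25 Tgfb2 UMIs (103, 42.6 and 55.7 CPM) and the 3 RD no tumour mice 3, 3 and 2 (22.0, 17.4 and 6.92), so the groups did not overlap. The log2 difference was 2.19 ± 0.66 (SE), with an adjusted p = 0.937 by edgeR (unadjusted p = 0.0076), which is not past the threshold. The 12 cholangiocyte markers (none at 0 in these mice) summed to 7546, 7070 and 8239 CPM in these WD tumour nuclei against 6296, 4489 and 3302 in RD no tumour; their part in the difference was not tested. In endothelial-gated nuclei Tgfb2 was at 4.93, 22.8 and 2.45 CPM in WD tumour and 3.24, 2.05 and 1.36 in RD no tumour (log2 difference 2.09 ± 0.89, SE; edgeR adjusted p = 1.0), and the groups overlapped.

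Pdgfrb in macrophage-gated nuclei was at 6.01, 9.96 and 13.6 CPM in WD tumour (5, 6 and 17 UMIs) and 2.47, 4.15 and 1.49 in RD no tumour (3, 6 and 2 UMIs). The log2 difference was 1.88 ± 0.57 (SE, edgeR unadjusted p = 0.0125, adjusted p = 0.998). RD tumour 2, the only RD tumour mouse with enough macrophage-gated nuclei, was at 11.9 CPM (11 UMIs), within the WD tumour range. The 16 stellate/fibroblast markers (0 to 4 of them at 0 in a mouse) summed in the same nuclei to 383, 382 and 555 CPM in WD tumour and 355, 389 and 275 in RD no tumour, and their part was not tested.

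In hepatocyte-gated nuclei, 4 of 10 members had an unadjusted p under 0.05 in the tumour comparison, where 12.1% of 17411 genes did; the counts were 1 member (2.95% of genes) in the combined comparison and 2 (9.39%) in the diet comparison. Pdgfra was at 12.3 and 18.9 CPM in RD tumour, 3.11, 2.86 and 1.51 in RD no tumour, and 5.19, 3.46 and 7.23 in WD tumour. The RD tumour mice lay above the other 6 (log2 difference from RD no tumour 2.46 ± 0.49, SE; edgeR adjusted p = 0.286; DESeq2 adjusted p = 0.000605). Tgfbr3 was at 43.9 and 42.1, then 10.4, 10.3 and 14.5, then 17.7, 12.0 and 23.2 (1.67 ± 0.36; edgeR adjusted p = 0.290; DESeq2 adjusted p = 0.00655). DESeq2 called 477 genes (2.83%) in this comparison, 58 (0.337%) in the combined and 171 (1.01%) in the diet comparison, and Pdgfra and Tgfbr3 here were its only member calls. The 16 stellate/fibroblast markers, none at 0, summed in the same hepatocyte-gated nuclei to 333 and 512 CPM in RD tumour, 184, 124 and 80.0 in RD no tumour and 201, 201 and 204 in WD tumour, so the RD tumour mice were highest for the markers as well. The 18 macrophage markers, none at 0, summed there to 3162 and 484, then 758, 243 and 167, then 275, 904 and 242. The part of stellate and macrophage RNA in these levels was not tested. Pdgfrb (1.99 ± 0.71, log2, SE) and Tgfb2 (2.20 ± 0.83) were the other members at an unadjusted p under 0.05 in the tumour comparison, with edgeR adjusted p = 0.399 and 0.409. Without RD tumour 1 the Tgfb2 difference was 0.64.

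**Figure D5:**
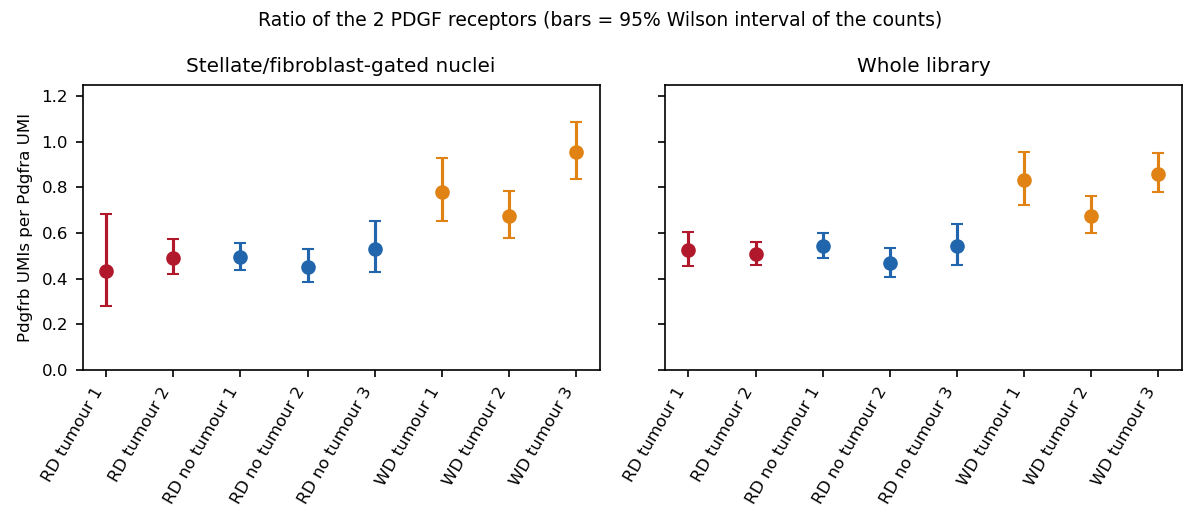
Pdgfrb UMIs per Pdgfra UMI (y axis, linear and starting at 0) in each mouse, in stellate/fibroblast-gated nuclei (left) and in whole libraries (right), with 95% Wilson intervals of the counts as bars. The 3 WD tumour mice, at 0.673 to 0.954 in stellate/fibroblast-gated nuclei, lie above all 5 reversed-diet mice, at 0.435 to 0.528.

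The balance of the PDGF receptors was examined after the levels had been seen, as Pdgfrb UMIs per Pdgfra UMI, a ratio within each library. In stellate/fibroblast-gated nuclei it was 0.435 (27 of Pdgfrb to 62 of Pdgfra) and 0.491 in RD tumour, 0.494, 0.450 and 0.528 in RD no tumour, and 0.777, 0.673 and 0.954 (431 to 452) in WD tumour. Whole libraries gave 0.524 and 0.507, then 0.544, 0.468 and 0.542, then 0.830, 0.675 and 0.859. All 3 mice still on Western diet were above all 5 mice of the reversed diet in both. In hepatocyte-gated nuclei, with 9 to 131 Pdgfrb UMIs per mouse, the ratio was 0.516 and 0.443, then 1.04, 0.214 and 0.75, then 1.09, 0.732 and 0.816, and the groups overlapped. The means were 0.801 ± 0.142 (SD, n = 3) and 0.480 ± 0.0368 (SD, n = 5) in stellate/fibroblast-gated nuclei, a log2 difference of 0.73, and 0.788 ± 0.0992 and 0.517 ± 0.0313 in whole libraries, a log2 difference of 0.60. The exact two-sided permutation test gave p = 0.0357 for each, higher in 3 of 3 mice, the smallest p that the 56 splits of these mice allow. Among all 45 pairs of members in whole libraries, 2 ratios (4.44%) separated the 3 mice from the 5 in this way, the other being Tgfb2 per Tgfbr2, and the lowest Benjamini-Hochberg adjusted p over the 45 exact permutation tests was 0.804, so the difference did not pass correction. Against RD no tumour alone the exact permutation p was 0.1, the smallest that 3 against 3 mice allow. The 7 mesothelial markers in stellate/fibroblast-gated nuclei summed to 80.1, 89.98 and 97.7 CPM in WD tumour (5 at 0 in each mouse) and 18.5 to 58.2 in the other 5 mice (2 to 4 at 0). The WD tumour sums thus rest on few of these markers. Mesothelial-gated nuclei themselves were fewest in WD tumour, at 5, against 30 in RD tumour and 29 in RD no tumour. The 6 smooth muscle markers (0 to 3 at 0) summed to 18.2 to 25.7 in WD tumour and 20.9 to 77.8 in the others. The median mitochondrial share of UMIs per barcode was 7.91%, 2.77% and 7.51% in WD tumour and 1.30% to 3.28% in the other 5 libraries, so the libraries with the 2 highest ratios were also the highest in mitochondrial RNA. The part of these cells and of RNA quality in the ratio was not tested.

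The wider pathways were followed with 59 further genes in 6 lists, and edgeR called 0 of them in each comparison, in whole libraries and in each class. In whole libraries 9, 7 and 7 of the 59 had an unadjusted p under 0.05 in the tumour, combined and diet comparisons, beside 6.7%, 2.75% and 7.56% of all genes. DESeq2 called 2, 0 and 2 of them there (0.338%, 0.194% and 0.588% of all genes) and 9, 2 and 2 in hepatocyte-gated nuclei (2.83%, 0.337% and 1.01%). In whole libraries, 12 of 15 TGF beta response genes (targets such as collagens) had a log2 difference above 0 in the tumour comparison, with a median of 1.09 beside 0.00 for all genes and 4 at an unadjusted p under 0.05. Their largest differences were in Acta2, smooth muscle actin, at 4.31 and 19.4 CPM in RD tumour against 0.583, 0.662 and 0.994 in RD no tumour and 0.557, 0.267 and 0.488 in WD tumour (3.86 ± 0.69, log2, SE; edgeR adjusted p = 0.612), and in Lox, a collagen cross-linking enzyme (2.87 ± 1.22). Lox was at 2.36 and 0.551 CPM in RD tumour against 0.377, 0.221 and 0 in RD no tumour. RD tumour 1 was also the higher for Col1a1 (10.9 and 1.73 against 1.92, 0.706 and 0.373) and Timp1 (4.34 and 0.257 against 2.37, 0.132 and 0.0931). Eln went the other way (1.43 and 17.6 against 4.94, 3.93 and 3.97), and Tagln was high in both RD tumour mice (17.1 and 14.6 against 2.44, 2.87 and 3.73). The 6 smooth muscle markers, which leave out Acta2, summed to 26.9 and 68.8 CPM in RD tumour and 37.1, 50.7 and 119 in RD no tumour. Smooth muscle-gated nuclei numbered 0 in RD tumour 1, 43 (0.414% of barcodes) in RD tumour 2, the library highest in Acta2, 2, 3 and 6 in RD no tumour, and 0 in each WD tumour mouse; their part in the Acta2 levels was not tested. In the combined comparison, 10 of 15 response genes were above 0 (median 0.72 beside -0.01), led by Col1a1 (2.31 ± 0.83) and Eln, elastin (1.30 ± 0.76).

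Of the 11 genes for TGF beta activation, 10 were above 0 in the combined comparison (median 0.70), and 9 in the tumour comparison (median 0.55). The largest difference was in Itgb6, whose integrin releases latent TGF beta, at 1.84, 0.755 and 1.06 CPM in WD tumour against 0.274, 0.132 and 0.217 in RD no tumour (2.48 ± 0.54, log2, SE; edgeR adjusted p = 1.0), and the groups did not overlap. Itgb8, another such integrin subunit, was at 8.19, 5.60 and 8.34 against 2.44, 1.59 and 1.68 (1.93 ± 0.52; edgeR adjusted p = 1.0). In RD tumour, Itgb6 was at 0.786 and 0.918 CPM, within the WD tumour range, and Itgb8 at 1.05 and 4.08, below the WD tumour mice. The cholangiocyte-gated share was also higher in each WD tumour mouse (1.60% to 2.69% of barcodes) than in each RD no tumour mouse (0.691% to 0.992%), and its part in these differences was not tested. Within cholangiocyte-gated nuclei the differences were 0.64 ± 0.52 for Itgb6 and 0.99 ± 0.68 for Itgb8 (log2, SE, edgeR unadjusted p = 0.247 and 0.173). The co-receptor list (9 genes), the SMAD list (9 genes) and the PDGF receptor effectors (10 genes) had medians of 0.09, 0.02 and 0.13 in this comparison, with 6, 7 and 9 members above 0, and the list of other PDGF ligands and processing genes (5 genes) 0.59, with 4 above 0. Their largest differences were in Pmepa1 (0.96 ± 0.45) and Smurf1 (0.45 ± 0.28), in Smad3 (0.56 ± 0.27) and Smad6 (0.45 ± 0.23), in Src (1.13 ± 0.43) and Gab1 (0.39 ± 0.28), and in Plat (1.70 ± 0.64) and Pdgfrl (-1.59 ± 0.93), none past the threshold. In stellate/fibroblast-gated nuclei, 12 of the 15 response genes were tested, with medians of -0.48, 0.68 and 0.48 in the 3 comparisons beside -0.03, -0.01 and 0.00 for all genes.

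Genes with the most similar pattern over the 54 mouse-by-class profiles were found by Pearson correlation of log2(CPM + 1) among 11813 genes, as a description of profiles that share libraries, depth and background RNA. Pdgfrb was most like Gucy1b1 (r = 0.929) and Pdgfra most like Gucy1a1 (r = 0.913), the genes for both subunits of soluble guanylate cyclase, the nitric oxide receptor. Tgfbr3 was most like Prkg1, a cyclic GMP-dependent kinase (r = 0.949). Tgfb1 was most like Ppp1r18 (r = 0.928), Tgfbr2 like Sp140 (r = 0.922), Tgfbr1 like Pvt1 (r = 0.814), Tgfb2 like Gab1 (r = 0.813) and Pdgfb like Eml6 (r = 0.791). Pdgfa (Fastkd2, r = 0.644) and Tgfb3 (Actn1, r = 0.659) had no gene as close. Among the members themselves, Pdgfra and Pdgfrb (r = 0.869) and Tgfb1 and Tgfbr2 (r = 0.815) were the most alike.

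The 10 genes are protein coding and lie apart in the genome (GENCODE M21, GRCm38). The TGF beta ligands are at chr7:25687002-25705077 (Tgfb1, plus strand), chr1:186622792-186705989 (Tgfb2, minus) and chr12:86056745-86079041 (Tgfb3, minus). Their receptors are at chr4:47353222-47414931 (Tgfbr1, plus), chr9:116084293-116175360 (Tgfbr2, minus) and chr5:107106570-107289629 (Tgfbr3, minus). Pdgfra (chr5:75152292-75198215, plus) and Pdgfa (chr5:138976014-138997370, minus) share chromosome 5 with Tgfbr3, Pdgfrb is at chr18:61045150-61085061 (plus) and Pdgfb at chr15:79995874-80014977 (minus).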

How the data were processed

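The data are single-nucleus RNA-seq of frozen mouse liver, 1 library per mouse (10x Chromium 3′ version 3.1, per the labels' protocols). The authors deposited raw UMI counts per gene and barcode; the submitters' processing notes name Cell Ranger 7.0.0 and mm10. The annotation they used and the counting of intronic reads are not given in the sources used here. The 10 genes and the pathway lists were chosen with earlier results of these data known. Barcodes with at least 300 genes were kept, and the gate thresholds (3 markers, 4 times the expected UMIs, from 144 markers of 12 classes; hepatocytes by 5 markers and no class with 2 markers at 2 times) were set after gate counts and member levels were seen. Counts were summed per mouse and class (at least 20 nuclei) and tested with edgeR 4.0.16 (R 4.3.3; quasi-likelihood, TMM, filterByExpr, all 3 groups in 1 fit, Benjamini-Hochberg over all genes, threshold 0.05). RD tumour contrasts are not reported for macrophage- and B-gated nuclei (1 RD tumour mouse). For T/NK- and cholangiocyte-gated nuclei, where RD tumour 1 carried more macrophage than own markers, they are given as counts only. Adjacent classes were ordered by the mean of log2(CPM + 1), CPM being UMIs per 1000000, with an exact sign-flip permutation test over mice. Named genes were the 10 members, the 2 genes of a list with the largest difference in the contrast described (for the lists without a value in the text, their medians only), and the gene most correlated with each member of its 3 closest. On simulated counts for the combined comparison, the test recovered 20.2% of genes changed 4-fold and 74.7% of those changed 16-fold in whole libraries (18783 genes), and 40% and 92.9% in stellate/fibroblast-gated nuclei (11565 genes). Alternatives were DESeq2 1.42.0, no low-count filter, another barcode minimum (500 genes), doublet calls left out, stricter and looser gates, a pseudocount of 10, the replicate number as a block, clusters of libraries as a block (added after seeing the data) and leaving out each mouse. Labels name separate mice, so p-values of the group comparisons and permutation tests measure the spread between mice. Those of the class fit rest on several profiles per mouse. They measure the spread left between profiles after the mouse block, not the spread over independent mice. Intervals of counts cover counting error only. Promoter sequences are from RefSeq (GRCm38.p6).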

Additional observations from a re-analysis of the deposited data

How the results depend on the processing

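Of 350 combinations of a class, a contrast and an alternative, 340 left 0 members called. DESeq2 called 2 in hepatocyte-gated nuclei in the tumour comparison, and without a low-count filter Tgfb2 was called in cholangiocyte-gated nuclei in the combined comparison (count 1, log2 difference 2.29). The other 8 came from leaving out RD tumour 2, which leaves RD tumour 1 alone in its group with a spread assumed to be that of the other groups: the count of members called then ranged over the left-out mice from 0 to 1 in whole libraries, 0 to 3 and 0 to 4 in stellate/fibroblast-gated nuclei, 0 to 1 in endothelial-gated nuclei (diet comparison), 0 to 1 in cholangiocyte-gated nuclei in both comparisons, and 0 to 6 and 0 to 2 in hepatocyte-gated nuclei, for the tumour and diet comparisons in turn. The fits without RD tumour 2 called many genes in all: 4569 and 4438 of 19873 in whole libraries, 1500 and 1547 of 12776 in stellate/fibroblast-gated, 579 and 703 of 12929 in endothelial-gated, 670 and 897 of 8503 in cholangiocyte-gated, and 5249 and 4484 of 18492 in hepatocyte-gated nuclei. Without RD tumour 1, the tumour comparison turned to -0.010 for Tgfbr1 and -0.23 for Tgfbr2 in whole libraries (up to 0.80 and 1.57 over left-out mice) and to 0.22 for Tgfbr3 and 0.19 for Pdgfra in stellate/fibroblast-gated nuclei (down to -2.35 and -2.24 without RD tumour 2); with library clusters as a block the latter were 0.15 and 0.35. Without RD no tumour 1, Pdgfra in stellate/fibroblast-gated nuclei was at 0.0074 in the combined comparison (down to -0.37 without RD no tumour 3). In the order of classes, stellate/fibroblast minus cholangiocyte for Tgfb2 turned to -0.047 with a pseudocount of 10 and -0.037 without doublet calls, and cholangiocyte minus macrophage for Pdgfa to -0.022 with the stricter gate. Members higher in T/NK-gated nuclei were 2 without RD tumour 1. Pathway genes called, 0 in each comparison, became 2 and 2 with DESeq2 in whole libraries (tumour and diet comparisons) and 9, 2 and 2 in hepatocyte-gated nuclei; over left-out mice they ranged from 0 to 12 and 0 to 10 in whole libraries, 0 to 9 and 0 to 9 in stellate/fibroblast-gated, 0 to 2 and 0 to 2 in endothelial-gated, 0 to 3 and 0 to 4 in cholangiocyte-gated, and 0 to 19 and 0 to 12 in hepatocyte-gated nuclei. The receptor ratio kept its direction without each mouse, with log2 differences of 0.60 to 0.85 in stellate/fibroblast-gated nuclei and 0.54 to 0.71 in whole libraries, where the smallest exact permutation p is 0.0571 or 0.0952. The cause of these changes was not tested. The replicate number as a block called 0 members in each comparison; same-numbered mice of different groups did not deviate together (r from -0.531 to 0.439 over 7 pairs of whole-library deviations), so the numbers were not taken to pair the mice. Depth limits Tgfb2, Tgfb3, Pdgfa and Pdgfb most: in RD no tumour, cholangiocyte-gated nuclei held 2 or 3 Tgfb2 UMIs per mouse. With 2 RD tumour mice, 1 of them standing apart, differences of that group rest on few independent samples.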

Other observations

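Classes too rare for a comparison still held UMIs of these genes. Neutrophil-gated nuclei were numerous in RD no tumour 1 (584 nuclei), where Tgfb1 had 50 UMIs (60.996 CPM, exact 95% Poisson interval 45.3 to 80.4), Tgfbr1 93 UMIs (113 CPM) and Tgfbr2 69 UMIs (84.2 CPM). Smooth muscle-gated nuclei of RD tumour 2 (43 nuclei) held 49 Tgfbr3 UMIs (395 CPM, interval 292 to 522) and 27 Tgfbr1 UMIs (218 CPM). The intervals cover counting error only, and each value comes from 1 mouse.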
